A study of Mus musculus with 16 samples.

Results

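Mitochondrial ribosomal protein genes were followed through the estrogen response of the mouse uterus. They were taken as the genes of non-control array probes whose deposited gene name begins with Mrpl (large subunit) or Mrps (small subunit) and a digit. This gave 76 genes with 106 probes in 133 spots, of 34740 genes on the array, and all 76 passed the filter on dim probes that left 25861 genes for testing. Of several probes of a gene, the brightest stood for it.

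The samples were whole uteri. The mice had been ovariectomised at the age of 4 weeks and kept for 2 to 3 weeks on normal chow. WT PLB mice were wild type and received castor oil without hormone (0 µg/kg, PLB), and WT E2 mice received 8 µg/kg of 17β-estradiol (E2) under the skin. Arg260 PLB and Arg260 E2 mice had the same treatments and carried a form of estrogen receptor α (ERα, the product of Esr1) named Arg260, and what replaced the arginine, and in which cells, is not in the labels. All 16 uteri were taken after 6 h, 4 per group with 1 array each. Whether the samples within a group are separate animals is not labelled, so p-values measure only the spread between these samples.

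Mitochondria carry their own ribosome, which makes the few proteins encoded by mitochondrial DNA, all of them membrane subunits of the respiratory chain and ATP synthase. Its RNAs come from mitochondrial DNA, whereas every one of its proteins is encoded in the nucleus, made in the cytosol and imported. Some of these proteins descend from bacterial ribosomal proteins and others exist only in mitochondria. In the uterus of an ovariectomised mouse, E2 acts through ERα and starts growth of the organ within hours.

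A level is given as the log2 of a probe's processed signal minus the log2 of its array's 75th percentile, so that 0 is the brightness of that percentile. Differences between levels are log2 changes, tested with limma over all 25861 genes, and a change was called at a Benjamini-Hochberg adjusted p under 0.05. Levels of different probes are not set against each other. Per array, 36505 to 41890 spots passed the scanner's mark for signal well above background. Correlations across genes between replicates were 0.980 to 0.993. The arrays WT PLB 2 and Arg260 PLB 3 lay away from their groups on the second principal component (5.12% of the variance). Pgr, a known estrogen target that encodes the progesterone receptor, rose by 2.12 in WT and 2.37 in Arg260. Esr1 changed by -0.04 in WT (adjusted p = 0.760) and fell by 0.35 in Arg260 (adjusted p = 0.00475), which does not bear on the Arg260 label, since RNA level does not show an altered residue.

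After E2, 64 of the 76 mitochondrial ribosomal protein genes were higher in WT, where 31.9% of all genes tested were called higher. In Arg260, 67 of the 76 were higher, where 33.6% of all genes were. In each genotype 2 of the 76 were lower, against 31.7% of all genes in WT and 30.7% in Arg260. The median change over the 76 genes was 0.74 in WT and 0.76 in Arg260, while over all genes it was -0.02 and 0.02. A rise of at least 2-fold was called for 27 of the 76 in WT (13.4% of all genes) and for 26 in Arg260 (14.0% of all genes). The response of these genes was thus broad and mostly of moderate size, with quartiles of the change at 0.45 and 1.17 in WT and at 0.49 and 1.11 in Arg260. In whole-organ RNA, a change in the share of cells of a type and a change in RNA per cell cannot be told apart.

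The groups of arrays were also well separated. In WT the 4 E2 values lay above all 4 PLB values for 68 of the 76 genes (30.1% of all genes) and below them for 2 (29.0% of all genes). In Arg260 this held for 65 genes above (31.2% of all genes) and 2 below (27.5% of all genes). Averaged over the 75 genes other than Mrpl51, which was not well above background on 1 array, the distance from the WT PLB mean was -0.04 to 0.03 on the WT PLB arrays and 0.69 to 0.86 on the WT E2 arrays. It was -0.02 to 0.16 on the Arg260 PLB arrays, with the highest value on replicate 4, and 0.72 to 0.96 on the Arg260 E2 arrays. The lowest E2 array was therefore far above the highest PLB array in both genotypes.

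**Figure D1:**
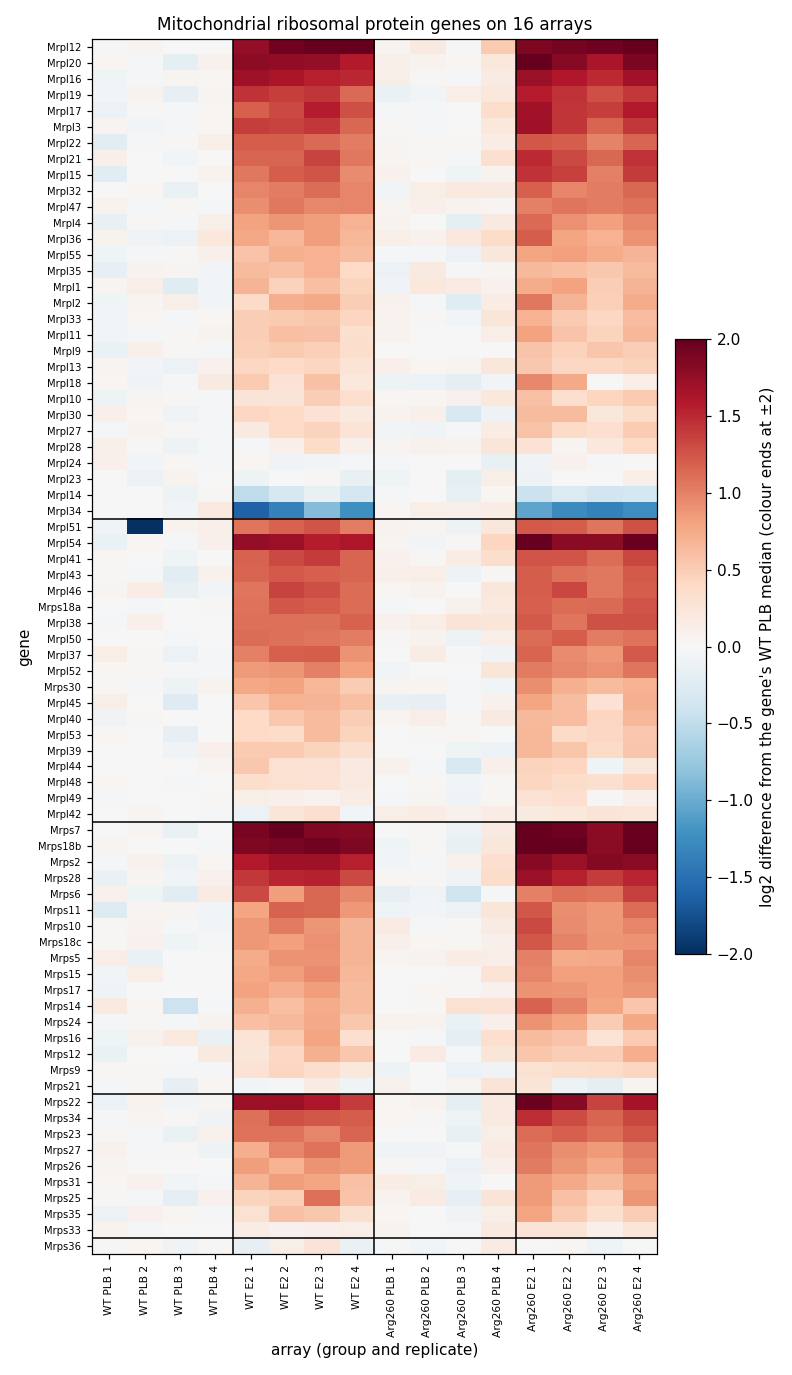
Heat map of the 76 mitochondrial ribosomal protein genes (rows) on the 16 arrays (columns); colour is the log2 difference from the gene's median over the 4 WT PLB arrays, with the colour scale ending at ±2. Horizontal lines part bacterial-type and mitochondria-specific proteins of the large subunit, those of the small subunit, and Mrps36; the E2 columns are red for most genes and blue for Mrpl34 and Mrpl14, and the single dark blue cell is Mrpl51 on WT PLB replicate 2.

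Brightness bears on these counts. Of the 76 genes, 57 lay in the brightest quartile of all genes tested by mean level, and in that quartile 50.3% of all genes were called higher in WT and 52.5% in Arg260, with median changes of 0.24 and 0.29. Quantile normalisation, which forces all arrays onto 1 distribution, took the median of that quartile to -0.02 in WT and -0.03 in Arg260. Under it each genotype had 53 of the 76 genes higher and 7 lower, with medians of 0.48 and 0.46, while in the brightest quartile of all genes 36.5% were higher in each genotype and 38.9% (WT) and 39.4% (Arg260) lower. The authors' deposited series table gave 54 higher and 6 lower for WT, and 55 and 7 for Arg260. Of all 25290 genes in that table, 16695 were called in either direction in WT and 16847 in Arg260. Most members were called higher under each of these scalings, while the size of the change differed between them.

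Of the 49 large subunit genes, WT had 40 higher and 2 lower and Arg260 had 42 and 2, with medians of 0.67 and 0.74. With quantile normalisation these became 31 and 4 for WT and 32 and 4 for Arg260, with medians of 0.42 and 0.43. Of the 26 small subunit genes, 24 rose in WT and 25 in Arg260, with 0 lower and medians of 0.81 and 0.88 (with quantile normalisation 22 and 21 were higher and 2 lower in each). Averaged per array, small subunit genes stood 0.81 to 0.99 above their WT PLB mean on the WT E2 arrays and large subunit genes 0.64 to 0.80 above theirs. On each of the 8 E2 arrays the small subunit's distance was the larger, and the difference between the subunits was not tested. Mrps18a and Mrps30 were counted with the large subunit, in which their proteins sit despite their names. Mrps36, whose product is now regarded as a part of the α-ketoglutarate dehydrogenase complex of the citric acid cycle, was counted with neither.

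By class, 24 of 30 bacterial-type genes of the large subunit were higher in WT and 25 in Arg260, with medians of 0.59 and 0.65, and both genes that fell belong here. Of the 19 mitochondria-specific genes of the large subunit, 16 were higher in WT and 17 in Arg260, with medians of 0.88 and 0.95. Mrps18a was counted with these genes, although bacteria have an S18 gene, so that the classes do not follow descent strictly. In the small subunit, 16 of 17 bacterial-type genes were higher in each genotype (medians 0.81 and 0.84). Of its 9 mitochondria-specific genes 8 were higher in WT and 9 in Arg260 (medians 0.81 and 0.91). All 4 classes thus had more genes higher than lower, and their medians kept a positive sign under quantile normalisation, between 0.34 and 0.60.

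Averaged over both genotypes, the largest rise among genes called in both was that of Mrps18b, which encodes a small subunit protein of the S18 family. Its level on the WT PLB arrays was 3.58, 3.53, 3.52 and 3.48 for replicates 1 to 4, and on the WT E2 arrays 5.40, 5.42, 5.46 and 5.40. In Arg260 it was 3.45, 3.55, 3.38 and 3.75 with PLB and 5.68, 5.60, 5.33 and 5.64 with E2. No E2 array came near a PLB array, and the spread within WT was small (SD 0.04 with PLB and 0.03 with E2, n = 4). The change was 1.89 in WT (3.71-fold, SE 0.09, adjusted p = 2.95e-10) and 2.03 in Arg260 (4.09-fold, SE 0.09, adjusted p = 1.74e-10). Its 3 probes gave 1.89, 2.05 and 2.15 in WT.

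Mrps7 encodes the small subunit protein uS7, which binds the head of the small ribosomal RNA. Its WT levels were 3.03, 3.09, 2.91 and 3.05 with PLB and 4.93, 5.04, 4.89 and 4.88 with E2. Its Arg260 levels were 3.04, 3.06, 2.92 and 3.22 with PLB and 5.04, 4.98, 4.85 and 5.03 with E2. The groups did not overlap, and the change was 1.91 in each genotype (3.77-fold, SE 0.08; adjusted p = 7.98e-11 in WT and 7.64e-11 in Arg260). A second, dimmer probe gave 1.33 in WT and 1.20 in Arg260, so that the probes shared the direction and not the size.

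Mrpl12 encodes the protein of the ribosomal stalk, where translation factors dock, and its product is also reported to bind the mitochondrial RNA polymerase. Levels in WT were 2.96, 3.06, 2.98 and 3.01 with PLB and 4.76, 4.93, 4.996 and 4.999 with E2. Levels in Arg260 were 3.05, 3.18, 2.98 and 3.52 with PLB and 4.86, 4.92, 4.95 and 4.98 with E2. Arg260 PLB replicate 4 was the highest PLB value, still below every E2 value. The rise was 1.92 in WT (SE 0.10, adjusted p = 8.48e-10) and 1.75 in Arg260 (SE 0.10, adjusted p = 2.00e-09).

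Mrpl20, a bacterial-type protein of the large subunit, was at 3.60, 3.52, 3.38 and 3.64 in WT PLB and at 5.35, 5.33, 5.32 and 5.15 in WT E2. It was at 3.66, 3.62, 3.60 and 3.77 in Arg260 PLB and at 5.57, 5.38, 5.19 and 5.44 in Arg260 E2. Again no group of a genotype overlapped the other, and WT E2 replicate 4 was lower than the other 3 WT E2 arrays. The rise was 1.75 in WT (SE 0.09, adjusted p = 5.48e-10) and 1.73 in Arg260 (SE 0.09, adjusted p = 5.86e-10). The next largest rises were those of Mrpl54 (1.67 in WT and 1.81 in Arg260), Mrps2 (1.64 and 1.71), Mrps22 (1.62 and 1.67) and Mrpl16 (1.61 and 1.55). They span both subunits: Mrps2 and Mrpl16 are bacterial-type proteins, and Mrps22 and Mrpl54 are found only in mitochondria.

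**Figure D2:**
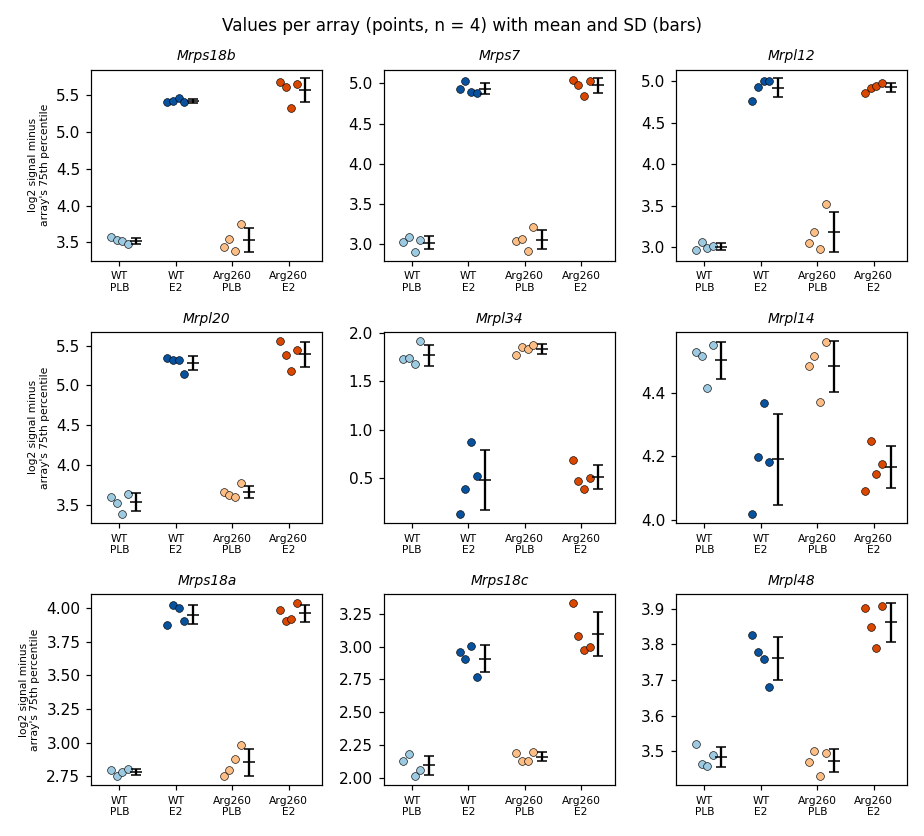
Level per array (points, log2 signal minus the array's 75th percentile; each panel has its own axis range) of 9 mitochondrial ribosomal protein genes in the 4 groups, with the mean and SD (bars, n = 4). E2 points lie above PLB points in both genotypes for all panels except Mrpl34 and Mrpl14, where they lie below.

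The 2 genes that fell both encode bacterial-type proteins of the large subunit. Mrpl34, the counterpart of a small bacterial ribosomal protein, was at 1.73, 1.74, 1.68 and 1.93 in WT PLB and at 0.12, 0.38, 0.87 and 0.52 in WT E2. It was at 1.77, 1.86, 1.84 and 1.88 in Arg260 PLB and at 0.68, 0.47, 0.38 and 0.50 in Arg260 E2. E2 arrays were all below PLB arrays, with a wide spread in WT E2 (SD 0.31 against 0.11 in WT PLB, n = 4). It fell by 1.30 in WT (2.46-fold, SE 0.13, adjusted p = 3.90e-07) and by 1.33 in Arg260 (2.51-fold, SE 0.13, adjusted p = 2.96e-07).

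Mrpl14, a protein of the interface between the subunits, fell less than Mrpl34 on this scale. Its WT levels were 4.53, 4.51, 4.42 and 4.55 with PLB and 4.02, 4.20, 4.37 and 4.18 with E2. Its Arg260 levels were 4.49, 4.52, 4.37 and 4.56 with PLB and 4.09, 4.25, 4.14 and 4.18 with E2. The highest WT E2 value, replicate 3, was just below the lowest WT PLB value, also replicate 3. It fell by 0.31 in WT (SE 0.08, adjusted p = 0.00236) and by 0.32 in Arg260 (SE 0.08, adjusted p = 0.00200). With the 8 arrays of slide 2 alone neither fall passed the test (-0.21 with adjusted p = 0.276 in WT and -0.31 with adjusted p = 0.128 in Arg260). With quantile normalisation the falls were larger, at -0.76 in WT and -0.83 in Arg260, and both passed the test.

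The probes of these 6 genes lie, on mouse build mm9 as given in the files, at chr17:36047331-36047390 (Mrps18b), chr11:115468609-115468668 (Mrps7), chr11:120349740-120349799 (Mrpl12), chr4:155182878-155182937 (Mrpl20), chr8:73989526-73989585 (Mrpl34) and chr17:45835317-45835376 (Mrpl14). Whether they cover coding sequence is not given. The probes of all 76 genes lie on 17 chromosomes, with the most, 10, on chromosome 11, so that the genes that rose together are scattered through the genome.

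Promoters were read because genes so scattered changed together. A RefSeq window of 300 bases (250 before to 50 after the annotated start, build GRCm38.p6) was matched by symbol for 67 of the 76 genes. The 250 bases before the start are shown for the 3 largest rises by that average and both falls. Capitals mark matches, on either strand, to motifs that were searched by their letters: the GC box (GGGCGG, bound by Sp1-type factors), the ETS site (CCGGAAG, bound by GABP and related factors) and the NRF-1 site (GCGCANGCG, bound by the respiratory gene regulator NRF-1). The YY1 site (AANATGGC), the E-box (CACGTG), the nuclear receptor half-site (AGGTCA) and the CCAAT box (CCAAT) were searched too.
Mrps18b, GRCm38.p6 chr17:35916441-35916690, minus strand: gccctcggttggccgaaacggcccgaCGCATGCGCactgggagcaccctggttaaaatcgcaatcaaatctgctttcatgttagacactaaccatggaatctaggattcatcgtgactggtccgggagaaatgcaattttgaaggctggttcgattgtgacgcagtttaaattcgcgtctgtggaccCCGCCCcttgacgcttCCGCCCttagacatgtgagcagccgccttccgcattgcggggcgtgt
Mrps7, GRCm38.p6 chr11:115603890-115604139, plus strand: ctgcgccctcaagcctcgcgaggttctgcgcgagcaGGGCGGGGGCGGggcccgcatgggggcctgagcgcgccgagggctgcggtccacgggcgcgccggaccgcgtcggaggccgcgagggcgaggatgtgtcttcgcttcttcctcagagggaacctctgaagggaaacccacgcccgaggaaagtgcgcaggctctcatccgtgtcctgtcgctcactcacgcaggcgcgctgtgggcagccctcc
Mrpl12, GRCm38.p6 chr11:120484387-120484636, plus strand: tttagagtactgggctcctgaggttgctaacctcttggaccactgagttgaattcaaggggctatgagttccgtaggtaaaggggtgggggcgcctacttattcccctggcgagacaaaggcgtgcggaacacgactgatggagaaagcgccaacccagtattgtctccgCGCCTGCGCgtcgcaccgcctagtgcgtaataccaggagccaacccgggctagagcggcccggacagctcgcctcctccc
Mrpl34, GRCm38.p6 chr8:71464676-71464925, plus strand: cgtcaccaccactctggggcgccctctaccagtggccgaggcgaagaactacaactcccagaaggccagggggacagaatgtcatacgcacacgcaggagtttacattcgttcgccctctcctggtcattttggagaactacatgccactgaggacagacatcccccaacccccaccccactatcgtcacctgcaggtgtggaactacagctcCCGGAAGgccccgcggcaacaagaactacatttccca
Mrpl14, GRCm38.p6 chr17:45686099-45686348, plus strand: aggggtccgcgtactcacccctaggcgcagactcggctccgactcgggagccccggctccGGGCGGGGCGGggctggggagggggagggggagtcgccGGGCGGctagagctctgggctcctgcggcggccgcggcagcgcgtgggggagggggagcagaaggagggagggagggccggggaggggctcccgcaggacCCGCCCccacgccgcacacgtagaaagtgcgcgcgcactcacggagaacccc
Among these 5 stretches, an NRF-1 match stands in Mrps18b (first base at -224 from the start) and in Mrpl12 (at -80), an ETS match in Mrpl34 (at -37), and GC boxes in Mrps18b, Mrps7 and Mrpl14. In Mrps7 and Mrpl14 neighbouring GC boxes overlap or abut. Within the 50 bases after the start, which are not shown, Mrps7 had a YY1 match, Mrps18b an ETS match, Mrpl12 a half-site (the only one among these 5 genes) and Mrpl14 an NRF-1 match and a further GC box.

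Over the windows of the 67 genes, YY1 matches were found in 29.9% against 7.44% of the 13674 tested genes with a window and 6.23% of all 27025 genes with one. ETS matches were found in 34.3% against 14.8% of tested and 9.12% of all genes, and NRF-1 matches in 22.4% against 11.1% and 6.47%. GC boxes were in 49.3% of these genes, above the 35.9% of all genes and below the 56.6% of tested genes. The half-site AGGTCA (14.9% against 13.4% of tested genes), the CCAAT box (40.3% against 38.3%) and the E-box (7.46% against 9.19%) stood near the background. These shares describe letters in a window: a match is no evidence of binding, and base composition differs between gene sets. Genes with and without an ETS match had median changes of 0.88 and 0.67 in WT, and of 0.95 and 0.72 in Arg260; with and without a YY1 match the WT medians were 0.70 and 0.72, and with and without an NRF-1 match 0.46 and 0.72. In WT the gap seen for ETS was about as wide for the half-site (0.88 and 0.67). In Arg260 the half-site gap was narrower (0.89 and 0.72). The E-box had 0.82 and 0.68 in WT and 0.94 and 0.72 in Arg260. A half-site was found in 10 of the 67 genes, an E-box in 5 and an ETS match in 23. Another gene's start on the opposite strand lay within 500 bases upstream for 22 of the 67 genes (32.8%), against 13.9% of tested genes, so that many of these promoters face both ways.

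**Figure D3:**
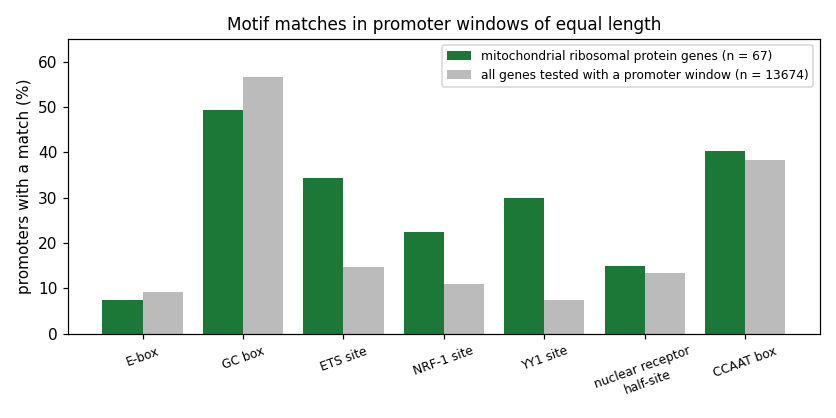
Share of promoter windows of 300 bases that hold at least 1 match to a motif on either strand (%), for 67 mitochondrial ribosomal protein genes (green) and all 13674 tested genes with a window (grey). The ETS, NRF-1 and YY1 bars are taller in green (34.3%, 22.4% and 29.9%) than in grey (14.8%, 11.1% and 7.44%); the shares were not tested.

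The S18 family gives 3 paralogues to compare, since mammals carry Mrps18a, Mrps18b and Mrps18c where bacteria have a single S18 gene. Mrps18a, the form that sits in the large subunit, was at 2.79, 2.75, 2.78 and 2.80 in WT PLB and at 3.87, 4.02, 3.997 and 3.90 in WT E2. In Arg260 it was at 2.75, 2.79, 2.88 and 2.99 with PLB and at 3.99, 3.90, 3.92 and 4.04 with E2. It rose by 1.17 in WT (SE 0.07, adjusted p = 1.43e-09) and 1.11 in Arg260 (SE 0.07, adjusted p = 2.34e-09), with no overlap of groups.

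Mrps18c, the form most like the bacterial protein in its place on the small subunit, was at 2.12, 2.18, 2.01 and 2.06 in WT PLB and at 2.96, 2.91, 3.002 and 2.76 in WT E2. In Arg260 it was at 2.19, 2.13, 2.13 and 2.20 with PLB and at 3.34, 3.08, 2.98 and 2.998 with E2. It rose by 0.82 in WT (SE 0.08, adjusted p = 6.52e-07) and 0.94 in Arg260 (SE 0.08, adjusted p = 1.49e-07). The 3 paralogues thus rose in the order Mrps18b, Mrps18a, Mrps18c in each genotype, and the differences between paralogues, read on different probes, were not tested.

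The second comparison asks whether the response differed between the genotypes. None of the 76 genes was called for the difference of the E2 responses (0 of 76, and 0% of all 25861 genes), and 0 of the 76 had an unadjusted p under 0.05 in limma against 962 of all genes. Of the 76 estimated differences, 75 were under 0.25 in size, and the median 95% interval reached 0.256 to either side. Mrpl51, with its 1 array not well above background, was the exception. The largest other difference was that of Mrps6, whose rise was 1.07 in WT and 1.30 in Arg260 (difference 0.22, 95% interval -0.15 to 0.60). A lack of calls does not show equal responses; it leaves differences up to the ends of these intervals.

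**Figure D4:**
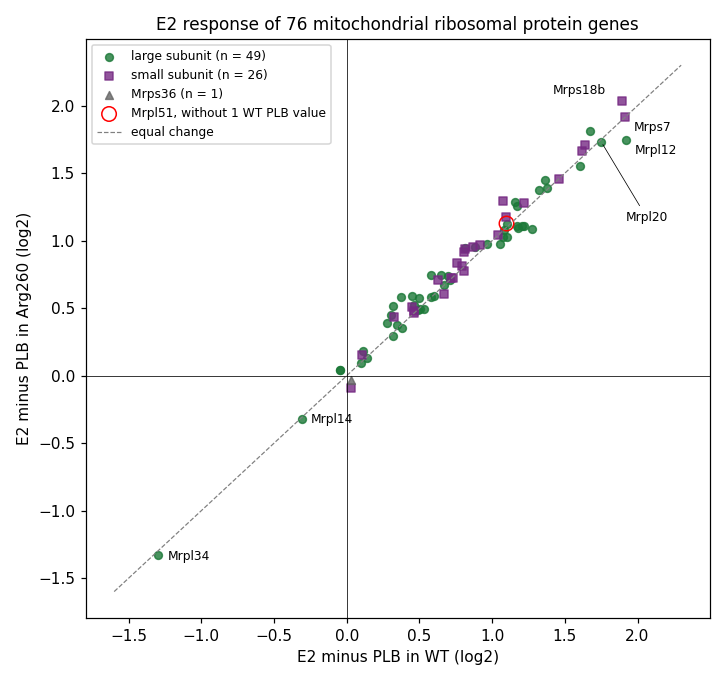
Log2 change with E2 in WT (horizontal) against that in Arg260 (vertical) for the 76 mitochondrial ribosomal protein genes, 1 point per gene, by subunit, with Mrpl51 (circled) drawn without its WT PLB replicate 2 value. Points follow the dashed line of equal change from Mrpl34 (-1.30 and -1.33) to Mrps18b (1.89 and 2.03); each axis is a difference of 2 means of 4 arrays.

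The members with the smallest p for this difference were Mrpl41 and Mrpl48, both mitochondria-specific proteins of the large subunit. Mrpl41 was at 2.87, 2.83, 2.75 and 2.83 in WT PLB, 4.01, 4.16, 4.22 and 3.99 in WT E2, 2.92, 2.86, 2.98 and 3.18 in Arg260 PLB and 4.08, 4.08, 3.95 and 4.17 in Arg260 E2. Its rise was 1.28 in WT and 1.08 in Arg260, and the difference of -0.19 (95% interval -0.44 to 0.06, unadjusted p = 0.119) came with higher PLB values in Arg260, where 3 of 4 arrays were above all WT PLB arrays. A second, dimmer probe of Mrpl41 was called in neither genotype in limma over all probes. It changed by 0.30 in WT (adjusted p = 0.217) and by 0.15 in Arg260 (adjusted p = 0.556), so that the calls for Mrpl41 rest on the brighter probe. Mrpl48 was at 3.52, 3.47, 3.46 and 3.49 in WT PLB, 3.83, 3.78, 3.76 and 3.68 in WT E2, 3.47, 3.50, 3.43 and 3.49 in Arg260 PLB and 3.90, 3.85, 3.79 and 3.91 in Arg260 E2. It rose by 0.28 in WT and 0.39 in Arg260 (difference 0.11, 95% interval -0.05 to 0.28, unadjusted p = 0.168), but with quantile normalisation its change was -0.10 and -0.06 and neither passed the test, so that its direction rests on the scaling.

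Without E2, 0 of the 76 genes differed between Arg260 and WT (0% of all genes; 1 of 76 had an unadjusted p under 0.05 in limma, against 638 of all genes). That gene was Mrpl38, a mitochondria-specific protein of the large subunit, at 1.20, 1.33, 1.22 and 1.22 in WT PLB and 1.30, 1.35, 1.48 and 1.46 in Arg260 PLB. The groups overlapped through WT PLB replicate 2, and the difference was 0.16 (95% interval 0.02 to 0.30, unadjusted p = 0.0315, adjusted p = 0.9996). With E2 it was at 2.33, 2.32, 2.32 and 2.39 in WT and at 2.44, 2.29, 2.49 and 2.49 in Arg260. Mrpl41 was second, with a difference of 0.17 (95% interval -0.01 to 0.34, unadjusted p = 0.0602).

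With E2, again 0 of the 76 differed between the genotypes (0% of all genes; 3 of 76 had an unadjusted p under 0.05 in limma, against 1901 of all genes). Mrpl54 was at 3.73, 3.68, 3.55 and 3.60 in WT E2 and 4.07, 3.79, 3.78 and 3.95 in Arg260 E2, after 1.85, 2.02, 1.94 and 2.08 and 2.04, 1.92, 2.005 and 2.40 with PLB. The 4 Arg260 E2 values lay above the 4 WT E2 values, which held for 2 of the 76 genes and for 660 of all 25861 genes. The difference for Mrpl54 was 0.26 (95% interval 0.03 to 0.48, adjusted p = 0.644). For Mrps18c, with the values given above, the groups overlapped and the difference was 0.19 (95% interval 0.01 to 0.37, adjusted p = 0.660). Over all 76 genes the Arg260 mean exceeded the WT mean for 68 with E2 and for 62 with PLB, by medians of 0.08 and 0.05, while over all genes tested it did so for 57.7% and 44.9%. Averaged over the members without Mrpl51, Arg260 PLB replicate 4 stood 0.16 above the WT PLB mean. Replicates 1 to 3 were at 0.02, 0.04 and -0.02, against -0.04 to 0.03 on the WT PLB arrays. With E2 the Arg260 arrays, at 0.72 to 0.96, overlapped the WT arrays, at 0.69 to 0.86. The genes share these arrays, so the counts of 68 and 62 are not independent. The shifts between genotypes are small beside the E2 responses, and no single gene's passed the test.

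Called in Arg260 and not in WT were Mrpl18, Mrpl49 and Mrps33, and no gene was called in WT alone. Mrpl18, whose bacterial counterpart binds 5S ribosomal RNA, was at 2.07, 1.96, 1.99 and 2.21 in WT PLB and 2.56, 2.32, 2.61 and 2.24 in WT E2. In Arg260 it was at 1.93, 1.91, 1.83 and 1.97 with PLB and 2.99, 2.79, 2.02 and 2.16 with E2, where replicates 1 and 2, on slide 1, were high and replicates 3 and 4, on slide 2, lay close to PLB. The change was 0.38 in WT (adjusted p = 0.0786) and 0.58 in Arg260 (adjusted p = 0.00985), and with slide 2 alone it was 0.19 in Arg260 (adjusted p = 0.426). The Arg260 call was also lost with quantile normalisation (0.29, adjusted p = 0.130), normexp with quantile normalisation (0.27, adjusted p = 0.140) and the authors' deposited series table (0.24, adjusted p = 0.202). Without Arg260 E2 replicate 1 or 3 the WT change, still 0.38, passed the test (adjusted p = 0.0356 and 0.0418). It also passed with only the 2 WT groups in the fit (0.38, adjusted p = 0.0155) and with slide 1 alone (0.42, adjusted p = 0.0331). Centring each array on the median of spots always well above background gave 0.44 in WT (adjusted p = 0.0451). The differences between genotypes of these 3 genes were 0.21, 0.07 and 0.05, and none was called.

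Mrpl49 (0.11 in WT, 0.18 in Arg260) and Mrps33 (0.11 and 0.15) were close to the threshold. A second, dimmer probe of Mrpl49 rose in both genotypes (0.62 in WT, adjusted p = 1.01e-04 in limma over all probes, and 0.71 in Arg260, adjusted p = 2.56e-05). With the mean of its probes the WT change was 0.37 (adjusted p = 8.30e-04), so that its call in Arg260 alone rests on the choice of probe. With the brightest probe, neither rise held with quantile normalisation, under which Mrpl49 changed by -0.13 and Mrps33 fell by 0.32 in Arg260. Leaving out Arg260 E2 replicate 1, Arg260 E2 replicate 2, Arg260 PLB replicate 1 or Arg260 PLB replicate 3 ended the Mrpl49 call (0.13 to 0.18, adjusted p up to 0.116). The Mrps33 call ended without any single array other than WT PLB 1, WT E2 1, WT E2 3, Arg260 PLB 4 and Arg260 E2 3 (0.13 to 0.15, adjusted p up to 0.103).

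Called in neither genotype were Mrpl23, Mrpl24, Mrpl28, Mrpl42, Mrpl51, Mrps21 and Mrps36. Mrpl28 and Mrpl42 had changes of 0.14 and 0.10 in WT and of 0.13 and 0.10 in Arg260. Mrpl23 and Mrpl24, bacterial-type proteins of the large subunit, had -0.05 and -0.04 in WT and 0.04 and 0.04 in Arg260, but with quantile normalisation they fell by 0.51 and 0.50 in WT and by 0.49 and 0.47 in Arg260. Mrps21, a bacterial-type protein of the small subunit, had 0.03 and -0.09, and with quantile normalisation it fell by 0.33 and 0.51. Mrps36 had 0.03 and -0.03, and fell by 0.22 and 0.33 under that scaling.

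Mrpl51, a mitochondria-specific protein of the large subunit, was at 3.76, -8.17, 3.89 and 3.93 in WT PLB, where replicate 2 was not well above background, and at 4.90, 5.01, 5.08 and 4.85 in WT E2. In Arg260 it was at 3.90, 3.89, 3.72 and 4.05 with PLB and at 5.05, 5.03, 4.90 and 5.10 with E2. Without the value of WT PLB replicate 2, which was left out after seeing the data, Mrpl51 rose by 1.10 in WT (adjusted p = 1.38e-07) and by 1.13 in Arg260 (adjusted p = 4.93e-08). With that value the estimates were 4.11 (SE 1.97, adjusted p = 0.0835) and 1.13 (SE 1.97, adjusted p = 0.637), since the spread of all groups is shared in the fit, and leaving out WT PLB replicate 3 or 4 gave 5.12 and 5.13 in WT (adjusted p = 0.0480 and 0.0459). It is the one gene of the 76 not well above background on all 16 arrays.

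Several probes passed the filter for 25 of the 76 genes, and for 21 of these all probes that passed changed in the same direction in both genotypes. In WT they lay within 0.5 of each other for 16 genes. The widest gap was in Mrpl9, with 0.46 for the brighter probe and 2.87 for a far dimmer one. Mrpl41 came next, with 1.28 for the brighter probe and 0.30 for the dimmer one. Mrps25 rose by 0.67 in WT and 0.61 in Arg260 with its brighter probe. Its dimmer probe was called in neither genotype in limma over all probes (0.09 in WT, adjusted p = 0.437, and 0.20 in Arg260, adjusted p = 0.0837). Mrpl39 had probes of opposite sign (0.45 and -0.19 in WT), and so had Mrps33 in both genotypes (0.11 and -0.0036 in WT, 0.15 and -0.12 in Arg260), Mrpl23 in Arg260 and Mrps36 in WT. For these genes the value depends on the probe that stands for them.

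The other genes of mitochondrial protein synthesis were taken from lists of known parts. Of 7 proteins of the mitochondrial ribosome that carry other names, 6 were higher in WT and 7 in Arg260, with medians of 0.76 and 0.79. With quantile normalisation 6 were higher and 1, Dap3, was lower in each genotype, with medians of 0.36 and 0.31. Gadd45gip1, a large subunit protein first named for a cell-cycle inhibitor partner, rose by 1.41 and 1.47, Mrpl57 (on the array as Mrp63) by 0.90 and 1.11, and Chchd1 by 0.92 and 0.92. Ptcd3, an RNA-binding protein of the small subunit, rose by 0.76 and 0.79, Aurkaip1 by 0.66 and 0.67, and Mrpl58 (Ict1), which frees stalled peptides, by 0.61 and 0.72. Dap3, a GTP-binding protein of the small subunit, was at 0.07 in WT (adjusted p = 0.418) and rose by 0.21 in Arg260 (adjusted p = 0.0280), but with quantile normalisation its change was -0.37 and -0.29.

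Factors that build the ribosome or modify its RNA were mixed, with 15 of 29 higher and 9 lower in each genotype and medians of 0.19 and 0.21. With quantile normalisation these became 15 and 12 for WT and 14 and 13 for Arg260 (medians 0.16 and 0.16). Fastkd2, which binds the large ribosomal RNA, rose by 1.59 in WT and by 1.36 in Arg260. Mrm3, a methyltransferase of that RNA, rose by 1.32 and 1.43. Tfb1m, which methylates the small ribosomal RNA, fell by 1.16 and 0.96, and Mettl17, an assembly factor of the small subunit, by 0.74 and 0.76. Of 17 translation factors, WT had 10 higher and 4 lower and Arg260 9 and 4 (medians 0.22 and 0.21). With quantile normalisation these became 8 and 4 for WT and 8 and 3 for Arg260 (medians 0.10 and 0.03). Letm1, an inner membrane protein, rose by 2.02 and 2.09 and Qrsl1, a subunit of the enzyme that completes glutaminyl-tRNA, by 1.79 and 1.68. Gatb, another subunit of that same enzyme, fell by 0.73 and 0.79, and the initiation factor Mtif3 by 0.59 and 0.67. Subunits of 1 enzyme thus went opposite ways here.

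Of 24 genes of mitochondrial transcription, replication and RNA, WT had 15 higher and 5 lower and Arg260 16 and 5 (medians 0.42 and 0.55). Elac2, which trims tRNA ends, rose by 1.52 and 1.63, and Tbrg4, an RNA-binding protein, by 1.51 and 1.64. Mterf2, a protein that binds mitochondrial DNA, fell by 2.92 and 2.95, and Polg2, the accessory subunit of the DNA polymerase, by 1.42 and 1.25. Among 13 regulators of nuclear genes for mitochondria, WT had 6 higher and 1 lower and Arg260 7 and 1. Pprc1, a coactivator of the PGC-1 family, rose by 2.57 and 2.20 and Mycn by 1.74 and 1.17, whereas Ppargc1a, which encodes PGC-1α, fell by 2.82 and 3.35. Named after their values were seen, as factors of the motifs searched, Nrf1 rose by 1.14 and 1.21, Gabpb1 by 1.05 and 1.11 and Yy1 by 0.50 and 0.53, while Gabpa was at -0.07 and 0.04 and did not pass the test.

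A further 3 lists, defined by gene name or position after the files were seen, place these values. Of 12 mRNAs encoded by mitochondrial DNA, which this ribosome translates, 2 were higher in WT and 1 in Arg260, with medians of 0.02 and 0.02, and with quantile normalisation 3 in WT and 5 in Arg260 were lower. ND1 was the highest of them, at 0.72 in WT and 0.70 in Arg260. Of 83 nuclear subunits of oxidative phosphorylation, WT had 62 higher and 7 lower and Arg260 62 and 6 (medians 0.48 and 0.49). With quantile normalisation these became 32 and 22 for WT and 30 and 26 for Arg260 (medians 0.11 and 0.07). Of 81 proteins of the cytosolic ribosome, WT had 11 higher and 9 lower and Arg260 14 and 14, with medians of -0.04 and -0.05. With quantile normalisation these became 10 and 28 for WT and 15 and 29 for Arg260. The cytosolic exceptions were led by Rpl7l1 (1.61 and 1.63) and Rps27l (1.11 and 1.20), both relatives of standard ribosomal proteins, while Rps21 fell by 0.50 and 0.47. These counts were not compared with the 76 genes by a test.

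**Figure D5:**
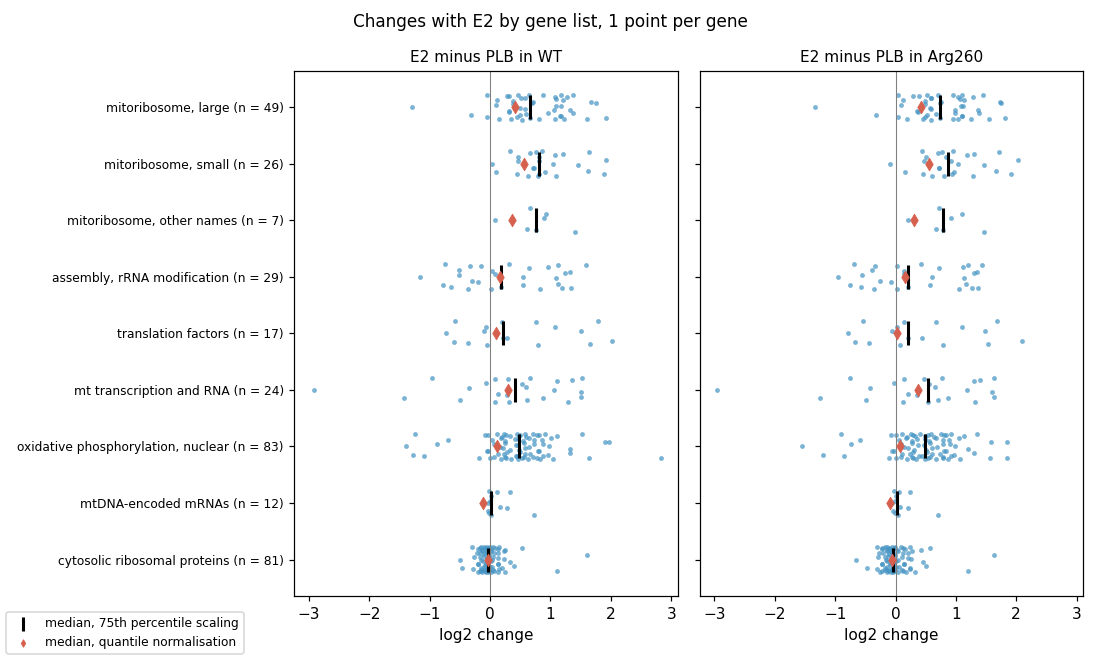
Log2 change with E2 in WT (left) and Arg260 (right), 1 point per gene (Mrpl51 without its WT PLB replicate 2 value), for 9 gene lists; the black bar is the list's median with 75th percentile scaling and the red diamond its median with quantile normalisation. The mitoribosome lists have medians of 0.67 to 0.88 on the first scale, mRNAs of mitochondrial DNA and cytosolic ribosomal proteins lie around 0, and quantile normalisation moves the oxidative phosphorylation median to 0.11 and 0.07.

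Markers of cell types moved with treatment too. Stromal markers were lower for 4 of 6 genes in each genotype, with a mean level of 4.48 to 5.24 on the WT PLB arrays and 3.54 to 4.61 on the WT E2 arrays, and of 4.62 to 5.33 and 3.71 to 4.26 in Arg260. Adipocyte markers were lower for 7 of 7 genes in WT and 2 of 7 in Arg260, with mean levels of 0.37 to 2.41 in WT PLB, -4.94 to -0.59 in WT E2, -0.05 to 1.52 in Arg260 PLB and -2.64 to 0.51 in Arg260 E2. The changes of these 7 genes were -4.90 to -2.54 in WT and -2.63 to -1.43 in Arg260. For the difference of the E2 responses, 0 of the 7 were called. Of 7 epithelial markers WT had 1 call upward and 2 downward, and Arg260 had 4 upward and 1 downward, with mean levels of 2.41 to 2.79 in WT PLB, 2.46 to 2.91 in WT E2, 2.46 to 2.64 in Arg260 PLB and 2.50 to 3.08 in Arg260 E2. With quantile normalisation, normexp with quantile normalisation and the authors' deposited series table, 0 epithelial markers were called upward, and the WT median turned from 0.19 to -0.19, -0.18 and -0.20. Macrophage markers had a mean level of 1.18 to 1.33 in WT PLB, 0.71 to 0.99 in WT E2, 1.16 to 3.34 in Arg260 PLB and 0.83 to 1.20 in Arg260 E2, with 1 of 4 lower in WT and 2 of 4 in Arg260 and 1 of 4 higher in each. Smooth muscle markers had a mean level of 5.37 to 5.76 in WT PLB, 5.80 to 6.24 in WT E2, 5.23 to 6.15 in Arg260 PLB and 5.85 to 6.09 in Arg260 E2, with 2 of 5 higher in WT and 1 of 5 in Arg260 (with quantile normalisation 1 higher and 1 lower in each). Ovarian markers had a mean level of -3.15 to -2.58 in WT PLB and -2.53 to -2.17 in WT E2. In Arg260 their mean level was -3.09 to -2.75 with PLB and -2.39 to -2.23 with E2. Of the 4 ovarian markers 2 were higher in WT and 1 in Arg260, with largest changes of 1.84 and 1.81. With quantile normalisation 1 was also lower in each genotype. Of these 4, 1 was not well above background on any PLB array. The part of these shifts in the members' changes was not tested.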

How the data were processed

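Total RNA of 16 uteri was hybridised to 1-colour (Cy3) Agilent arrays, 1 per sample. Per the file headers, the authors extracted spot intensities with Agilent Feature Extraction 10.10.1.1, with background subtraction and spatial detrending within each array. The deposited series table holds log2 values with 1 distribution on all arrays (median 8.69; Spearman 0.998 to 0.999 with the scanner's mean signal), and the submitters' processing notes name limma; it served as an alternative.

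Here the processed intensity was log2-transformed and each array's 75th percentile (922 to 1296) subtracted. Outlier spots were left out, spots of a probe averaged, and probes well above background on at least 4 arrays kept (38683 probes; 25861 genes, 137 with a missing value, which the fit skips). Group means were fitted with limma 3.58.1 in R 4.3.3 (lmFit, eBayes, 12 residual degrees of freedom, all 16 arrays, no block; two-sided, Benjamini-Hochberg). The script was tested on simulated data. Precision is set by the number of arrays: for a member's E2 effect, the 95% interval was 0.181 wide on either side at the median.

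Members and lists were chosen with earlier results of these data known, so no list was tested as a set. Names were updated through the GRCm38.p6 RefSeq table (27325 probes by accession, 3523 by symbol, 551 by synonym, the rest as in the files). Of the members, those named are the 8 largest rises and all falls called in both genotypes, the 2 with the smallest p in each genotype comparison, those called in 1 genotype or in neither, Mrps18a, Mrps18b, Mrps18c and Mrpl12; other lists give their 2 largest rises and falls, of which 1 gene is not reported here. Other scalings, background corrections, filters, probe rules, blocks, single slides and each array left out were tried.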

Additional observations from a re-analysis of the deposited data

Results flagged for a closer look

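Among 25 named mitochondrial ribosomal protein genes in 4 groups, 100 sets of 4 arrays, 6 held an array farther from the other 3 than Dixon's 95% limit allows, and chance alone marks about 1 in 20. The value of Mrpl51 on WT PLB replicate 2 was -8.17 against 3.76 to 3.93 on the other WT PLB arrays. The other values differ little in size. Mrpl20 on WT E2 replicate 4 was at 5.15 (5.32 to 5.35 on the others), and Mrpl38 on that array at 2.39 (2.32 to 2.33). Mrpl38 on WT PLB replicate 2 was at 1.33 (1.20 to 1.22). Mrps33 on Arg260 E2 replicate 3 was at 3.84 (3.98 to 3.99), and Mrps36 on Arg260 PLB replicate 4 at 2.25 (2.03 to 2.07).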

How the results depend on the processing

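Alternatives bore on the size of the changes more than on their direction. With quantile normalisation, normexp with quantile normalisation and the authors' series table, the median over the 76 genes was 0.483, 0.473 and 0.529 for WT and 0.462, 0.456 and 0.452 for Arg260, while 7, 7 and 6 genes (WT) and 7, 7 and 7 genes (Arg260) were lower. With slide 1 alone the Arg260 median was 0.899, and with slide 2 alone 1 gene was lower in each genotype. Over all alternatives 53 to 67 genes were higher in WT and 53 to 68 in Arg260, and no gene was called in any genotype comparison. Of the 21344 to 34740 genes tested in these alternatives, 11389 to 16776 were called in either direction in WT and 11232 to 16873 in Arg260. Leaving out each array in turn gave 62 to 65 genes higher in WT and 64 to 67 in Arg260, with medians of 0.718 to 0.779 and 0.729 to 0.820. Reversed signs, counted where either value passed the test, arose for 7 named genes under those 3 scalings only. In that order Mrpl48 was at -0.10, -0.11 and -0.12 (WT) and at -0.0557, -0.0225 and -0.0512 (Arg260). Mrps33 was at -0.30, -0.28 and -0.32 and at -0.32, -0.29 and -0.34. Mrps21 was at -0.33, -0.30 and -0.29 in WT, and Mrps36 at -0.22 and -0.21 (first 2 scalings). In Arg260 Mrpl49 was at -0.13, -0.0638 and -0.0152, Mrpl23 at -0.49, -0.47 and -0.50, and Mrpl24 at -0.47, -0.48 and -0.48. The cause of the shifts was not tested beyond the values by brightness given above. Without both arrays that stand apart (chosen after seeing the data) 65 genes were higher in each genotype. Same-numbered samples lay on the same slide (replicates 1 and 2 on slide 1, 3 and 4 on slide 2), and the labels name no pairing. Deviations of same-numbered samples correlated at -0.107 to 0.258. With the replicate block 64 and 67 genes were higher and 2 and 2 lower, and 16394 and 16673 of all genes were called in WT and Arg260 against 16434 and 16629 without it.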
